A study of Homo sapiens with 32 samples.

Results

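The IRAK kinases and the adaptors of Toll-like receptors were described here over 4 treatments of MM.1S, a line of human multiple myeloma cells. The 8 genes are the kinases IRAK1, IRAK2, IRAK3 and IRAK4, the adaptors MYD88, TIRAP and PIK3AP1, and the ubiquitin ligase TRAF6. They were picked by symbol from the 24249 gene IDs of the deposited table, and each symbol matched 1 gene ID. Earlier results of these data had named IRAK2 among the largest rises with ATRA and PIK3AP1 among the largest falls after carfilzomib. The values of IRAK2 with ATRA and of PIK3AP1 after carfilzomib, each against DMSO, are therefore given as a description, with no p, limma interval or call, and read ratios carry counting intervals only. Other contrasts of these 2 genes are treated the same way, since they share libraries or the estimate of spread with those. The exception is the plot of the change with ATRA after carfilzomib and without it. That plot draws a limma interval for IRAK2 after carfilzomib, and nothing is read from the interval.

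Cells were exposed for 1 h to carfilzomib (Cfz), an inhibitor of the proteasome, or to the vehicle DMSO, and then grown for 12 h with 10 µM all-trans retinoic acid (ATRA), a ligand of nuclear retinoic acid receptors, or with DMSO. The groups were carfilzomib followed by ATRA (ATRA+Cfz, 1 library), a DMSO pulse followed by ATRA (ATRA, 3 libraries), carfilzomib followed by DMSO (Cfz, 1 library) and DMSO at both steps (DMSO, 3 libraries). All groups share the one cell line and its growth medium, and no dose of carfilzomib is stated in the labels. Nothing in the labels ties the replicate libraries to separate cultures, and the p-values then measure a spread between libraries that may be technical.

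Toll-like receptors and receptors of the interleukin-1 family share an intracellular domain, named TIR, that recruits MYD88, with TIRAP acting as a bridging adaptor for some receptors. MYD88 assembles IRAK4, which activates IRAK1 and IRAK2, and these bind TRAF6, whose ubiquitin chains switch on the kinases upstream of NF-kB and of the MAP kinases. IRAK3, also called IRAK-M, is known mainly from myeloid cells as a brake on this assembly, and PIK3AP1, also called BCAP, links B cell and Toll-like receptors to phosphoinositide 3-kinase. In B lineage tumours the pathway is best known for activating mutations of MYD88 in some lymphomas.

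The promoters of the 2 genes that earlier results had named, IRAK2 and PIK3AP1, are shown because retinoic acid receptors bind repeats of a short core motif. Both are RefSeq windows on GRCh38.p14 that run from 250 bases before the transcript start to 50 bases after it. The IRAK2 window is chr3:10164669-10164968 on the plus strand, and the PIK3AP1 window is chr10:96720465-96720764 on the minus strand. Capitals mark the only core motif found, GGGTCA, in the IRAK2 window.
IRAK2: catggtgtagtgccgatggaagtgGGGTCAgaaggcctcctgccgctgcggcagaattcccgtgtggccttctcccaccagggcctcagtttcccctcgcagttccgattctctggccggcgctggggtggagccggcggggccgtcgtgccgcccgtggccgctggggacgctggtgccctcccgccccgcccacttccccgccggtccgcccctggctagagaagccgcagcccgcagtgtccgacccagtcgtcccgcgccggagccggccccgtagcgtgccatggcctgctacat
PIK3AP1: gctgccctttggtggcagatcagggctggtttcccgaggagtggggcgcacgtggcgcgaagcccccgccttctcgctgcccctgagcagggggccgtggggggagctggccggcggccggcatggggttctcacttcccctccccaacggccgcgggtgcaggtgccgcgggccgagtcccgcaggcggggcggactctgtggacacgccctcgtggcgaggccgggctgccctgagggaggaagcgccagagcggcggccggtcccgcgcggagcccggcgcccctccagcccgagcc

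The core motif was searched on both strands as AGGTCA, with the spelling AGTTCA, the spelling GGGTCA or the spelling GGTTCA counted as well. Direct repeats of it spaced by 2 or by 5 bases and the NF-kB motif were also searched on both strands, and a repeat also counts as a core motif. Of 35116 promoter windows of the same length, 38.6% held the core motif, 0.0399% a repeat spaced by 2, 0.0883% a repeat spaced by 5 and 11.3% the NF-kB motif. Of the 7 member promoters with an entry, those of IRAK1, IRAK2 and IRAK4 held the core motif, that of IRAK1 also held an NF-kB match, and none held a repeat. TIRAP had no entry. A match is only a run of letters in the window.

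Depth was 14136937 to 17155331 reads per library. A floor of 3 reads therefore stood at 0.175 to 0.212 FPM, the unit of all levels below, in which fragments are scaled to 1000000 per lane. Of the DMSO libraries, DMSO 3 stood apart. Its chi-square over the degrees of freedom was 9.18 from DMSO 1 and 9.71 from DMSO 2, and that between DMSO 1 and DMSO 2 was 1.73. Its mitochondrial genes took 5.85% of reads, against 4.12% and 4.09% in DMSO 1 and DMSO 2, and this share was 5.72% in ATRA+Cfz, 3.67% to 3.89% in ATRA and 5.43% in Cfz. All 9 plasma cell markers reached 1 FPM in every group, with a summed level of 9240 FPM in ATRA+Cfz, 11000 to 11100 FPM in ATRA, 8160 FPM in Cfz and 8050 to 9470 FPM in DMSO. Of 12 myeloid markers, 7 were in the table and 2, CD68 and S100A9, reached 1 FPM in at least 1 library. The 7 summed to 14.3 FPM in ATRA+Cfz, 10.3 to 13.3 FPM in ATRA, 24.3 FPM in Cfz and 11.3 to 14.3 FPM in DMSO. CD68 stood at 8.34 to 22 FPM and made up most of these sums, while CD14 was at 0.257 FPM or less. In these bulk libraries, fewer cells of a type and less RNA per cell cannot be told apart.

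**Figure D1:**
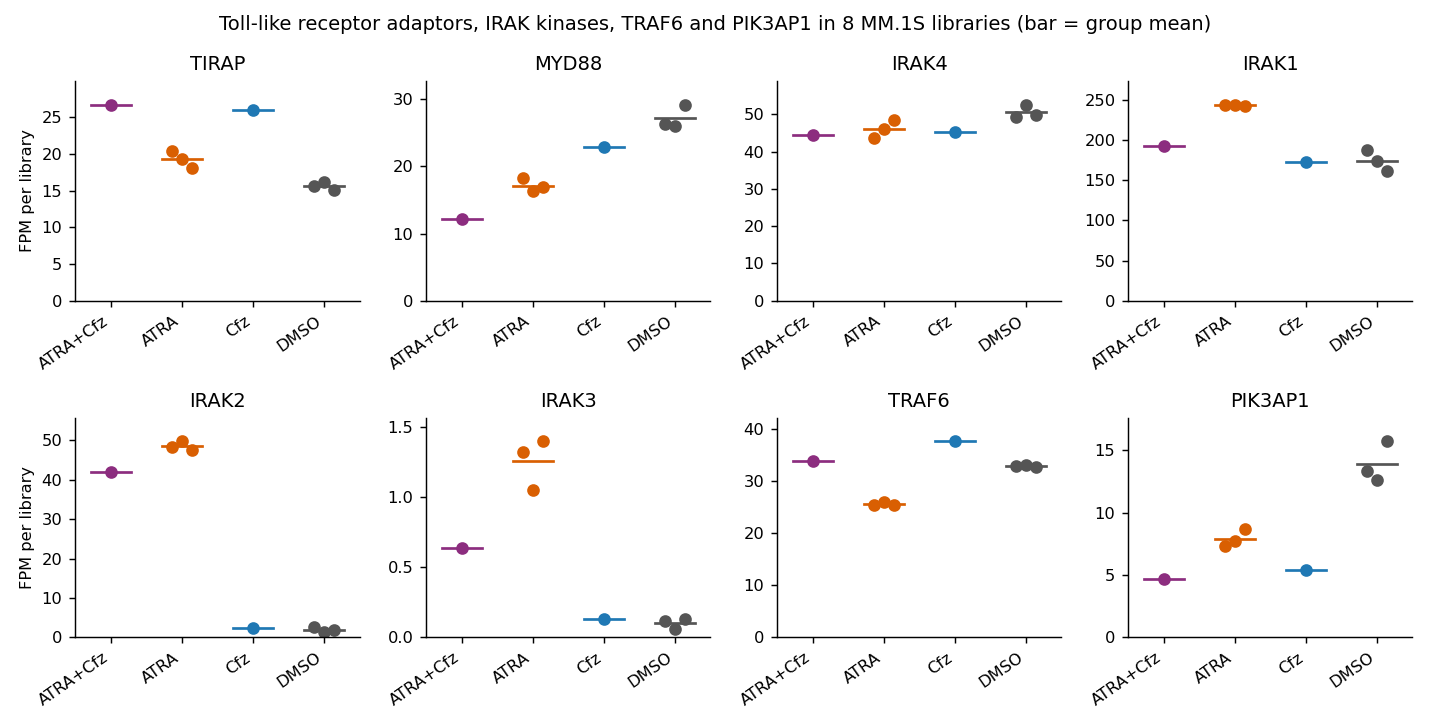
Level of each gene in FPM (vertical axes from 0, each with its own scale) in the 8 libraries, grouped as ATRA+Cfz, ATRA, Cfz and DMSO. Points are libraries and bars are group means. IRAK2 stood at 41.9 to 49.7 FPM in the 4 libraries with ATRA and at 1.39 to 2.63 FPM in the 4 without. PIK3AP1, MYD88 and IRAK4 were lower in each treated library than in each DMSO library, IRAK4 by a small margin.

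With ATRA, IRAK2 stood far above its DMSO level and IRAK1 rose 1.39-fold. The adaptors moved apart, with MYD88 lower and TIRAP higher, and TRAF6 fell to 0.781 of its DMSO level. Over all 15827 genes tested, limma called 48.7% in this comparison, 21.3% higher and 27.4% lower, at a Benjamini-Hochberg adjusted p under 0.05. Of the 5 genes other than IRAK2, IRAK3 and PIK3AP1, IRAK1 and TIRAP were called higher, MYD88 and TRAF6 lower, and IRAK4 was not called. The full count over the 8 genes, 7 called, includes IRAK2 and PIK3AP1, whose choice rested on the same DMSO libraries, and IRAK3, which was bound to differ. It is a description from which nothing is read. All 8 genes passed the filter on low values, a mean of the 4 group means of at least 0.5 FPM.

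TIRAP, the bridging adaptor that brings MYD88 to receptors at the plasma membrane, had 26.7 FPM in ATRA+Cfz, 20.4, 19.3 and 18.1 FPM in ATRA, 25.9 FPM in Cfz and 15.6, 16.2 and 15.1 FPM in DMSO. Every treated library was above every DMSO library, and both libraries with carfilzomib were above those without it. ATRA raised TIRAP by 0.29 ± 0.07 on the log2 scale against DMSO (limma, SE, adjusted p = 5.0e-03, 3 against 3 libraries). The difference after carfilzomib was 0.71 ± 0.10 (limma, adjusted p = 4.8e-04, 1 against 3 libraries) and after both agents 0.76 ± 0.10 (limma, adjusted p = 5.9e-05). ATRA added no called difference after the pulse: the change was 0.05, with a 95% interval of -0.22 to 0.31. TIRAP overlaps 2 antisense genes, AP001318.1 over 12.5% and AP001318.2 over 10% of its exon bases in GENCODE release 29. Their levels were at most 0.917 and 4.46 FPM, and without a stated strand setting their reads cannot be told apart from those of TIRAP. Over the 8 genes and 8 libraries, 2 of 64 chi-square tests of the lanes gave a p under 0.05, TIRAP in ATRA 3 and PIK3AP1 in DMSO 2.

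MYD88, the central adaptor, moved the other way. It had 12.2 FPM in ATRA+Cfz, 18.2, 16.3 and 16.9 FPM in ATRA, 22.9 FPM in Cfz and 26.3, 26 and 29.2 FPM in DMSO. The groups did not overlap, with ATRA+Cfz lowest and DMSO highest. MYD88 fell by 0.65 ± 0.07 on the log2 scale with ATRA (limma, adjusted p = 1.9e-05) and by 1.13 ± 0.10 with both agents (limma, adjusted p = 3.4e-06), each against DMSO. The change after carfilzomib alone was -0.24 ± 0.10 and was not called (limma, adjusted p = 0.12). Set against the Cfz library, ATRA lowered MYD88 by 0.89 ± 0.13 (log2 change of -0.89, limma, adjusted p = 3.0e-04), a contrast that shares no library with ATRA against DMSO. Per kilobase of the median transcript, TIRAP and MYD88 were at 12.9 and 6.39 FPM in ATRA+Cfz, 9.31 and 9.01 FPM in ATRA, 12.5 and 12 FPM in Cfz and 7.56 and 14.3 FPM in DMSO. Which of the pair was higher depended on the length used. With the shortest transcript of each, MYD88 was also the higher in ATRA (18.8 against 15.2 FPM per kilobase for TIRAP) and in Cfz (25.1 against 20.5). Which isoforms were used is not known from gene values, and the 8 annotated MYD88 transcripts span 914 to 2850 bases.

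IRAK4, the kinase that starts the cascade, stayed within a narrow range. It had 44.5 FPM in ATRA+Cfz, 43.7, 46 and 48.4 FPM in ATRA, 45.2 FPM in Cfz and 49.3, 52.6 and 49.9 FPM in DMSO. Every treated library was below every DMSO library, by a small margin. No comparison called it; the change with ATRA was -0.13, with a 95% interval of -0.25 to -0.02 (limma, adjusted p = 0.053). That call sits at the threshold, since IRAK4 was called lower without DMSO 3 (limma, adjusted p = 0.032), without ATRA 3 (limma, adjusted p = 0.037) and with a filter of 2 FPM (limma, adjusted p = 0.046).

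IRAK1, the most abundant of the 4 kinases, had 192 FPM in ATRA+Cfz, 243, 244 and 242 FPM in ATRA, 172 FPM in Cfz and 187, 174 and 162 FPM in DMSO. The ATRA libraries stood closely together above all others, the ATRA+Cfz library lay between them and the highest DMSO library, and Cfz lay within the DMSO range. ATRA raised IRAK1 by 0.48 ± 0.05 on the log2 scale (limma, adjusted p = 5.6e-06). In ATRA+Cfz it was lower than in ATRA (log2 change of -0.34 ± 0.07, limma, adjusted p = 2.7e-03). Against DMSO the ATRA+Cfz change of 0.14 ± 0.07 was not called (limma, adjusted p = 0.092), although it was called at 0.20 to 0.22 with median-ratio scaling, edgeR and DESeq2 and at 0.19 without DMSO 1. IRAK1 lies on the X chromosome, and its level per kilobase of the median transcript was 70.7 FPM in ATRA+Cfz, 89.2 FPM in ATRA, 63.1 FPM in Cfz and 64.1 FPM in DMSO.

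IRAK2, the kinase that sustains late signalling, had 41.9 FPM in ATRA+Cfz, 48.2, 49.7 and 47.4 FPM in ATRA, 2.29 FPM in Cfz and 2.63, 1.39 and 2.01 FPM in DMSO. The libraries fell into a high set with ATRA and a low set without it, and Cfz lay within the DMSO range. The mean was 48.4 ± 1.2 FPM in ATRA and 2.01 ± 0.62 FPM in DMSO (SD, n = 3 each), from 2223 and 98 reads. That is a log2 difference of 4.32, a read ratio of 24 with an exact interval of 19.6 to 29.7 that covers counting error only. It was the 6th largest rise of the 15827 genes tested. The 2 libraries pulsed with carfilzomib entered neither of those groups. Between them, IRAK2 was 3.93 higher on the log2 scale with ATRA (1 against 1 library). This difference rests on 593 reads in ATRA+Cfz and 35 reads in Cfz. No test of it is given, since the spread in the fit comes from the ATRA and DMSO libraries.

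The makeup of the IRAK reads differed between libraries with and without ATRA. IRAK2 held 15% of the reads of the 4 IRAK genes in ATRA+Cfz (95% Wilson interval 13.9% to 16.2%), 14% to 14.6% in ATRA, 1.05% in Cfz (0.754% to 1.45%) and 0.608% to 1.1% in DMSO. IRAK1 kept the largest share, 68.9% in ATRA+Cfz, 71.3% to 72.3% in ATRA, 78.3% in Cfz and 75.7% to 78.2% in DMSO. Per kilobase of the median transcript, IRAK2 was at 12 FPM in ATRA+Cfz and 13.9 FPM in ATRA, below IRAK4 at 26.4 and 27.4 FPM in the same groups, and at 0.658 FPM in Cfz and 0.576 FPM in DMSO. The order of IRAK2 and IRAK4 in the groups with ATRA depended on the length used. With the longest transcript of each, IRAK2 was the higher, at 12 FPM against 10.4 FPM for IRAK4 in ATRA+Cfz and at 13.9 against 10.8 FPM in ATRA. IRAK1 was the highest and IRAK3 the lowest of the 4 in every group with the shortest, the median or the longest transcript.

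**Figure D2:**
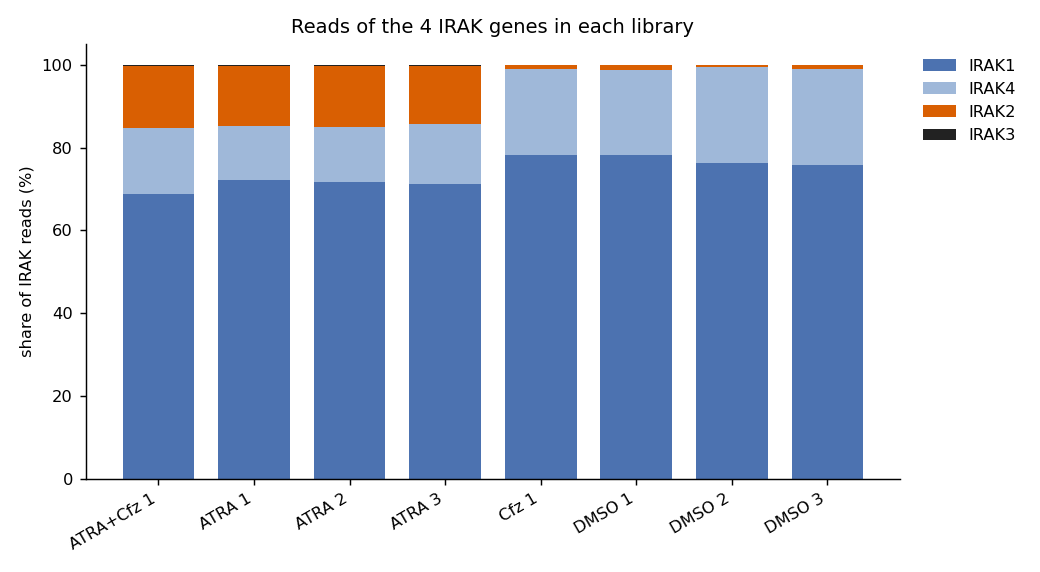
Share of the reads of IRAK1, IRAK4, IRAK2 and IRAK3 (stacked bars from 0 to 100%) in each library, with the libraries with ATRA on the left. IRAK2 took 14% to 15% of the bar in the 4 libraries with ATRA and 0.608% to 1.1% in the 4 without.

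IRAK3, the inhibitory member, was near the detection floor. It had 9 reads in ATRA+Cfz (0.638 FPM), 21, 15 and 22 reads in ATRA (1.32, 1.05 and 1.4 FPM), 2 reads in Cfz and 2, 1 and 2 reads in DMSO. All 4 libraries with ATRA were above the floor of 3 reads and all 4 without were under it. IRAK3 passed the filter only through the groups with ATRA, so it had to differ, and it supports nothing here. The pooled read ratio of ATRA to DMSO was 12.3, with an exact interval of 4.97 to 39.2 for counting error, and that of ATRA+Cfz to DMSO was 6.2 (1.87 to 23.5). IRAK3 also shares 2.44% of its exon bases with an antisense gene, AC078889.1.

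TRAF6, the ligase that the IRAK kinases hand the signal to, had 33.8 FPM in ATRA+Cfz, 25.3, 26 and 25.4 FPM in ATRA, 37.6 FPM in Cfz and 32.9, 33 and 32.7 FPM in DMSO. The ATRA libraries were lowest and Cfz was highest, with ATRA+Cfz just above the DMSO range. ATRA lowered TRAF6 (log2 change of -0.36 ± 0.05, limma, adjusted p = 1.1e-04). Against the ATRA libraries, ATRA+Cfz was higher by 0.39 ± 0.07 (limma, adjusted p = 1.6e-03), and against DMSO its change was 0.04, with a 95% interval of -0.12 to 0.20. The Cfz library's change of 0.19 ± 0.07 against DMSO was not called (limma, adjusted p = 0.075) but was called at 0.26 with median-ratio scaling and 0.23 with edgeR.

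PIK3AP1, which carries the signal of B cell and Toll-like receptors to phosphoinositide 3-kinase, had 4.66 FPM in ATRA+Cfz, 7.31, 7.71 and 8.67 FPM in ATRA, 5.38 FPM in Cfz and 13.3, 12.6 and 15.7 FPM in DMSO. All treated libraries were below all DMSO libraries, and both libraries with carfilzomib were below those with ATRA alone. The Cfz value rests on 82 reads, and the read ratio of Cfz to DMSO was 0.39 with an exact interval of 0.306 to 0.491. Against the same DMSO libraries the log2 difference was -0.77 in ATRA and -1.47 in ATRA+Cfz, and against the Cfz library ATRA+Cfz differed by -0.19. These 3 values share libraries with the contrast that chose the gene and are given without a test. The difference of ATRA+Cfz from ATRA shares none, and there PIK3AP1 was lower by a log2 change of -0.70 (1 against 3 libraries). No test of it is given, since the DMSO libraries enter the spread of the fit. Without DMSO 3, its highest library, the ATRA difference was -0.68.

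**Figure D3:**
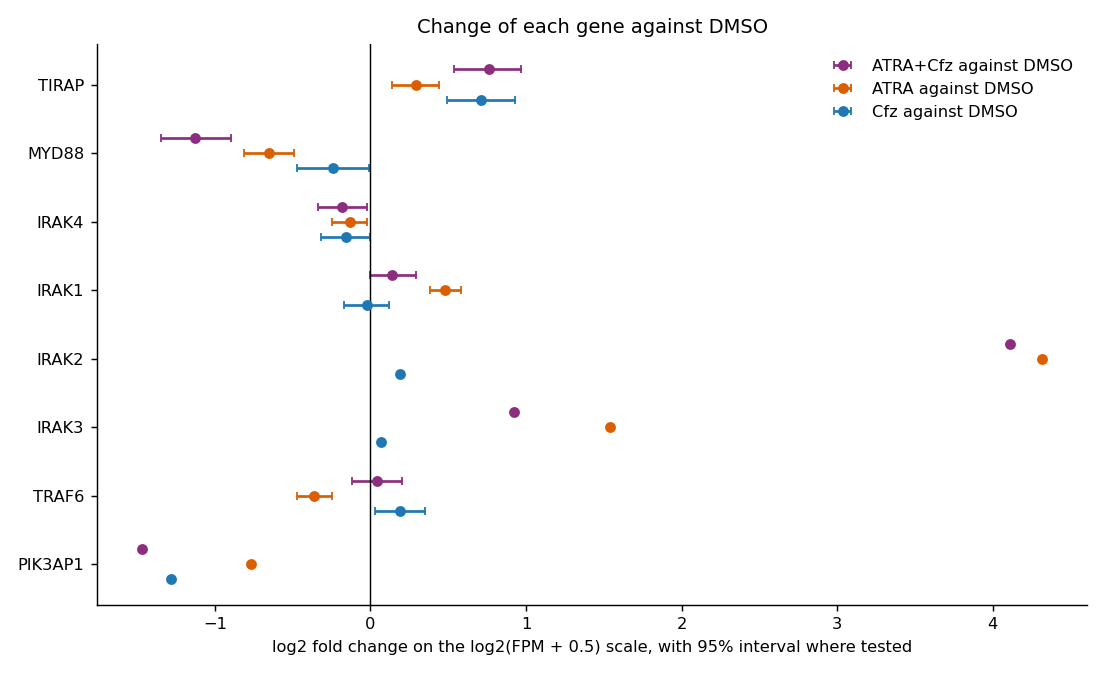
Log2 fold change of each gene (horizontal axis, log2(FPM + 0.5) scale, bars are 95% intervals from limma; points without a bar are differences given with no test) for ATRA+Cfz, ATRA and Cfz, each against DMSO. IRAK2 is set apart at 4.11 and 4.32 in the comparisons with ATRA, and MYD88, PIK3AP1 and IRAK4 lie below 0 in all 3 comparisons. IRAK4 was at -0.18 in ATRA+Cfz, -0.13 in ATRA and -0.16 in Cfz. All 3 comparisons share the DMSO libraries, and for IRAK3, with DMSO under the floor, the fitted value understates the difference.

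After carfilzomib alone, TIRAP was called higher against DMSO, and IRAK1, IRAK4, MYD88 and TRAF6 were not called. Over all genes limma called 24.9%, 7.94% higher and 17% lower. Nothing is read from how many of these genes were called. IRAK1 differed by -0.02, with a 95% interval of -0.17 to 0.12, and IRAK2 by 0.19. The sign of these 2 changes was not stable over the settings tried, and IRAK1 was called in none of them.

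With both agents, 2 of the 5 genes other than IRAK2, IRAK3 and PIK3AP1 were called against DMSO, TIRAP higher and MYD88 lower, beside 50.6% of all genes, 20% higher and 30.5% lower. Set against the ATRA libraries, TIRAP and TRAF6 were called higher in ATRA+Cfz, IRAK1 and MYD88 lower, and IRAK4 was not called. There 30.9% of all genes were called, 10.6% higher and 20.2% lower. The call of MYD88 in that contrast was lost with DESeq2. Set against the Cfz library, MYD88 was called lower and IRAK1, IRAK4, TIRAP and TRAF6 were not called. In that contrast 30.4% of all genes were called, 12.8% higher and 17.6% lower. Without DMSO 3, whose spread enters the fit, IRAK1 was called there too (0.16, limma, adjusted p = 0.01). The lone libraries were assumed to vary like the replicated groups, so these contrasts have no replicate check.

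Whether ATRA acted differently after the pulse was tested by the interaction, the ATRA change after carfilzomib minus the ATRA change without it. IRAK1, IRAK4, MYD88, TIRAP and TRAF6 were not called by limma, where 2.3% of all genes were. IRAK1 differed by -0.31, with a 95% interval of -0.52 to -0.11 (limma, adjusted p = 0.1). It was called with DESeq2 (-0.34, adjusted p = 0.045), with median-ratio scaling (-0.36, limma, adjusted p = 0.045) and without DMSO 3 (-0.26, limma, adjusted p = 5.1e-03). Of IRAK1, IRAK4, MYD88, TIRAP and TRAF6, only IRAK1 had an unadjusted limma p under 0.05. edgeR called 0 of the 8 genes and DESeq2 called 1, IRAK1, while giving no adjusted p for 6. These 2 counts include IRAK2, IRAK3 and PIK3AP1. The share of all genes called with edgeR, DESeq2 or median-ratio scaling is not given, so these calls are a description. Without DMSO 3 many more of all genes were called in the interaction, as the closing section lists. Nothing is therefore read from the IRAK1 call in that setting. The interaction of PIK3AP1, 0.58, contains the Cfz value that chose the gene, and that of IRAK2, -0.39, contains its ATRA value, so neither is read as a test. That of IRAK3 is not read either, since its Cfz and DMSO values were under the floor.

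**Figure D4:**
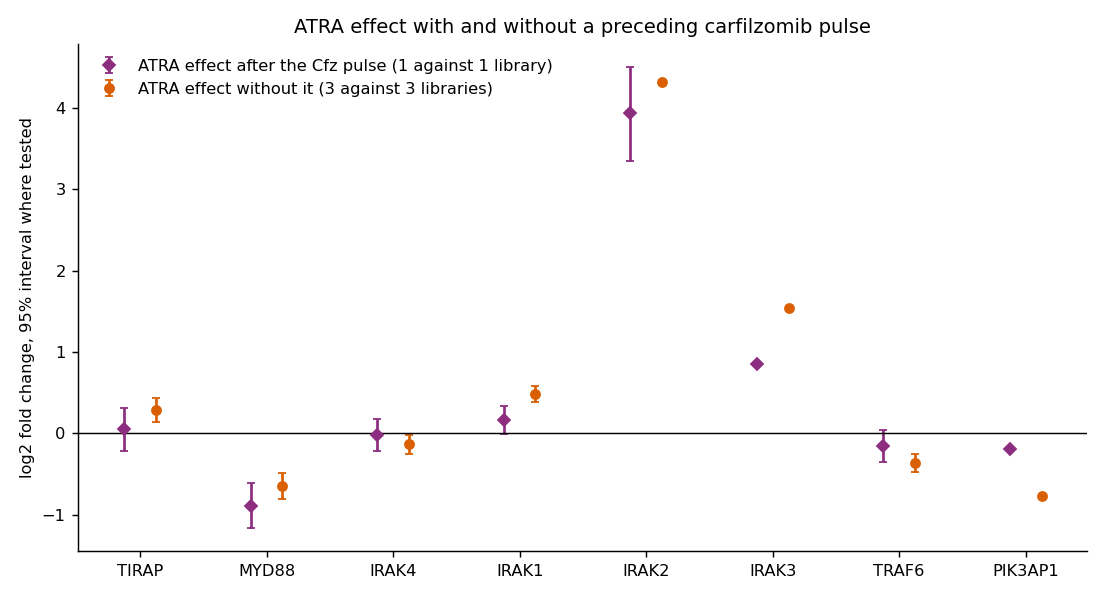
Log2 change with ATRA (vertical axis, bars are 95% intervals from limma) after the carfilzomib pulse (diamonds, 1 against 1 library) and without it (circles, 3 against 3 libraries) for each gene. Points without a bar are differences given with no test. The bar of IRAK2 after the pulse takes its spread from the ATRA and DMSO libraries and is not read as a test. The values after and without the pulse were 3.93 and 4.32 for IRAK2, -0.89 and -0.65 for MYD88, 0.16 and 0.48 for IRAK1, -0.19 and -0.77 for PIK3AP1 and 0.85 and 1.54 for IRAK3, which had under 3 reads in Cfz and in each DMSO library.

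Leaving out DMSO 3, the library that stood apart, changed no call of IRAK1, MYD88, TIRAP or TRAF6 against DMSO. It changed that of IRAK4, which was then called with ATRA and with both agents (-0.19, limma, adjusted p = 0.03).

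For IRAK2, the tested genes with the most alike pattern over the 8 libraries were KCNH4 (Pearson r = 0.9979), SV2B (0.9973), RASSF5 (0.9971) and WHRN (0.9968), of 12210 genes with at least 2 FPM on average. These correlations on the log2 scale describe a split between libraries with and without ATRA that all 5 genes share. KCNH4, a potassium channel gene, had 32.3 FPM in ATRA+Cfz, 39.4, 40.6 and 36.8 FPM in ATRA, 1.84 FPM in Cfz and 2.04, 1.63 and 1.61 FPM in DMSO. RASSF5, by contrast, moved over a narrow range, 506 FPM in ATRA+Cfz, 513 to 516 FPM in ATRA, 384 FPM in Cfz and 384 to 400 FPM in DMSO, since r does not reflect the size of a change. For PIK3AP1 the nearest were SP4 (r = 0.9938), GMCL1 (0.9931), MMUT (0.9927) and KIF2A (0.9895), over the same 8 libraries. SP4, a zinc finger transcription factor, had 15.6 FPM in ATRA+Cfz, 19.1, 19.2 and 19.9 FPM in ATRA, 16.2 FPM in Cfz and 26.7, 25.1 and 28.1 FPM in DMSO.

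Around these genes, 6 lists of the pathway were read in the same fit. They were chosen with earlier results known, no list was tested as a set, and each count is set beside the share of all genes called, 48.7% with ATRA, 24.9% after carfilzomib and 50.6% with both.

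Of 13 tested receptors and their accessory proteins, 4 rose and 5 fell with ATRA, with a median log2 change of 0.03, against -0.028 over all genes. TLR6, a partner of TLR2 for lipopeptides, averaged 48 ± 1.1 FPM in ATRA and 30 ± 0.69 FPM in DMSO (SD, n = 3 each), a log2 change of 0.67 (limma, adjusted p = 3.5e-07). TLR2 itself averaged 0.196 FPM in ATRA and 0.481 FPM in DMSO and did not pass the filter. LY96, the co-receptor MD-2 that lets TLR4 bind lipopolysaccharide, averaged 26 ± 1.6 FPM in ATRA and 13.4 ± 0.4 FPM in DMSO (log2 change of 0.93, limma, adjusted p = 5.7e-07). TLR4 itself was at 34.9 ± 2.5 FPM in ATRA and 34.2 ± 3 FPM in DMSO. TLR5, the receptor of flagellin, stood at 5.57 ± 0.95 FPM in ATRA and at 0.145 ± 0.074 FPM in DMSO, under the floor. It passed the filter only through the groups with ATRA, so it had to differ. The counts of receptors that rose with ATRA and with both agents include TLR5. The counts that fell with ATRA and with both agents include LY86. LY86 averaged 0.283 FPM in ATRA+Cfz, 0.626 FPM in ATRA, 2.68 FPM in Cfz and 1.99 FPM in DMSO. It passed the filter mainly through the groups without ATRA, so nothing is read from its fall.

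Among receptors of nucleic acids in endosomes, TLR7 fell and TLR3 was not called. TLR7 averaged 5.43 ± 0.38 FPM in ATRA and 19 ± 3.1 FPM in DMSO (log2 change of -1.71, limma, adjusted p = 4.6e-07), and UNC93B1, the chaperone that takes such receptors to endosomes, 78.6 ± 1.8 FPM in ATRA and 138 ± 20 FPM in DMSO (-0.80, limma, adjusted p = 1.1e-05). TLR3 had a change of 0.07 (limma, adjusted p = 0.78). After carfilzomib TLR6, at 61.7 FPM against 30 FPM in DMSO, and LY96, at 24.4 FPM against 13.4 FPM, rose and none fell; with median-ratio scaling 4 rose, and without DMSO 3 1 fell. With both agents 3 rose and 4 fell, with TLR6 at 80.1 FPM, TLR7 at 4.17 FPM and UNC93B1 at 43.6 FPM. The count of receptors that fell with ATRA was 3 without DMSO 2 or without ATRA 2.

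Of 14 other adaptors and genes of the interferon branch, 4 rose and 6 fell with ATRA (median log2 change of -0.07). TBK1, a kinase that phosphorylates IRF3, averaged 120 ± 1.7 FPM in ATRA and 98.4 ± 1.3 FPM in DMSO (0.28, limma, adjusted p = 3.8e-05), and its substrate IRF3 averaged 60.5 ± 1.4 FPM in ATRA and 45.1 ± 2.1 FPM in DMSO (0.42, limma, adjusted p = 2.0e-05). IKBKE, the related kinase, fell to 37.6 ± 0.96 FPM in ATRA, against 53.5 ± 3 FPM in DMSO (-0.50, limma, adjusted p = 1.1e-05). IRF5 and IRF7, factors that act with MYD88, also fell, by changes of -0.29 and -0.57. After carfilzomib 2 of the 14 rose, TBK1 at 152 FPM and IRF3 at 54.4 FPM, and TIFA, an adaptor that binds TRAF6, fell to 29.1 FPM, against 51.6 FPM in DMSO. The number that fell after carfilzomib was 3 without DMSO 3. With both agents 3 rose and 7 fell, with TBK1 at 192 FPM. Without ATRA 3, the number that rose with ATRA was 2.

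Of 24 kinases and ubiquitin enzymes that act below TRAF6, 4 rose and 9 fell with ATRA, 5 rose and 7 fell after carfilzomib, and 6 rose and 7 fell with both. SQSTM1, a scaffold that binds TRAF6 and an autophagy receptor, was at 3210 FPM in ATRA+Cfz, 748 ± 7 FPM in ATRA, 1890 FPM in Cfz and 407 ± 6.9 FPM in DMSO. MAP3K5, a stress kinase, averaged 85.3 ± 1.1 FPM in ATRA and 37.5 ± 6.3 FPM in DMSO (1.19, limma, adjusted p = 1.3e-06). MAP2K3, a kinase of p38, was higher in each treatment, at 74.6 FPM in ATRA+Cfz, 64.8 FPM in ATRA and 66.7 FPM in Cfz, against 48.1 FPM in DMSO. UBE2N, which builds the ubiquitin chains of TRAF6 and may share reads with its processed pseudogenes, was lower in each, at 102, 127 and 127 FPM in the same order of groups, against 157 FPM in DMSO. MAP3K7, the kinase TAK1 that TRAF6 activates, fell with ATRA by a change of -0.26 (limma, adjusted p = 7.5e-04), and MAP2K6 by -0.94 (limma, adjusted p = 5.4e-05). With DESeq2, 1 of the 24 fell after carfilzomib in place of 7.

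Negative regulators were called in both directions, 9 of 16 higher and 3 lower with ATRA (median log2 change of 0.18). TNIP1, a ubiquitin binder that restrains NF-kB, averaged 173 ± 6.3 FPM in ATRA and 97.9 ± 4.9 FPM in DMSO (0.81, limma, adjusted p = 5.6e-08), while its partner TNFAIP3, the enzyme A20, fell to 196 ± 0.73 FPM in ATRA, against 284 ± 8.7 FPM in DMSO (-0.54, limma, adjusted p = 1.8e-07). ZC3H12A, a nuclease of inflammatory mRNAs, averaged 30.9 ± 2.5 FPM in ATRA and 19 ± 1.9 FPM in DMSO, and TOLLIP, a binder of IRAK1, 33.7 ± 0.99 FPM in ATRA and 29.6 ± 0.39 FPM in DMSO. After carfilzomib 3 rose and 5 fell, and the number that fell was 1 with DESeq2, 2 with edgeR and 3 with median-ratio scaling or without DMSO 2. With both agents 7 rose and 3 fell, with TNIP1 at 206 FPM and TNFAIP3 at 179 FPM.

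Of 18 NF-kB subunits and response genes, 8 rose and 5 fell with ATRA (median log2 change of 0.07). ICAM1, an adhesion molecule, averaged 12.6 ± 1.1 FPM in ATRA and 5.22 ± 0.46 FPM in DMSO (1.20, limma, adjusted p = 2.4e-06). NFKBIZ, a nuclear cofactor of NF-kB, averaged 29.8 ± 0.97 FPM in ATRA and 16.4 ± 1.3 FPM in DMSO, and BIRC3, an inhibitor of apoptosis, 311 ± 5.7 FPM in ATRA and 233 ± 8.6 FPM in DMSO. NFKB1, which encodes p50, fell to 85.2 ± 3.1 FPM in ATRA, against 119 ± 3.9 FPM in DMSO, and the chemokine genes CCL3 and CCL4 fell by changes of -1.26 and -1.31. The subunit RELA was at 60.6 ± 4 FPM in ATRA and 60.8 ± 2.7 FPM in DMSO. After carfilzomib 2 rose and 2 fell, and the fall of NFKBIZ to 12.1 FPM ran against its rise with ATRA. Without DMSO 3 the number that fell was 5, and with DESeq2 it was 0, with 1 that rose. With both agents 6 rose and 6 fell, with ICAM1 at 16.6 FPM and NFKBIZ at 37.1 FPM.

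Of 20 genes of the B cell receptor and phosphoinositide 3-kinase, the route of PIK3AP1, 5 rose and 11 fell with ATRA (median log2 change of -0.21), 1 rose and 9 fell after carfilzomib (3 fell with DESeq2), and 5 rose and 10 fell with both. SYK, a kinase of the B cell receptor, was at 43.4 FPM in ATRA+Cfz, 62.1 ± 3.2 FPM in ATRA, 82.3 FPM in Cfz and 97.7 ± 4.5 FPM in DMSO. The regulatory subunit gene PIK3R3 was at 26.2 FPM in ATRA+Cfz, 26.6 ± 1 FPM in ATRA, 36.9 FPM in Cfz and 51.9 ± 0.78 FPM in DMSO. Both were lower in each treated group than in DMSO, as was AKT1, a kinase activated by this route, at 29.1, 40.7 and 53.2 FPM in the same order of groups, against 65.3 FPM in DMSO. PIK3CB, a catalytic subunit, rose with ATRA by a change of 0.53 and fell after carfilzomib by a change of -0.31. CD79A, counted among the 5 that rose with ATRA, averaged 2.31 FPM in ATRA, 0.202 FPM in DMSO and 0 FPM in Cfz. It passed the filter only through the groups with ATRA, so it had to differ.

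**Figure D5:**
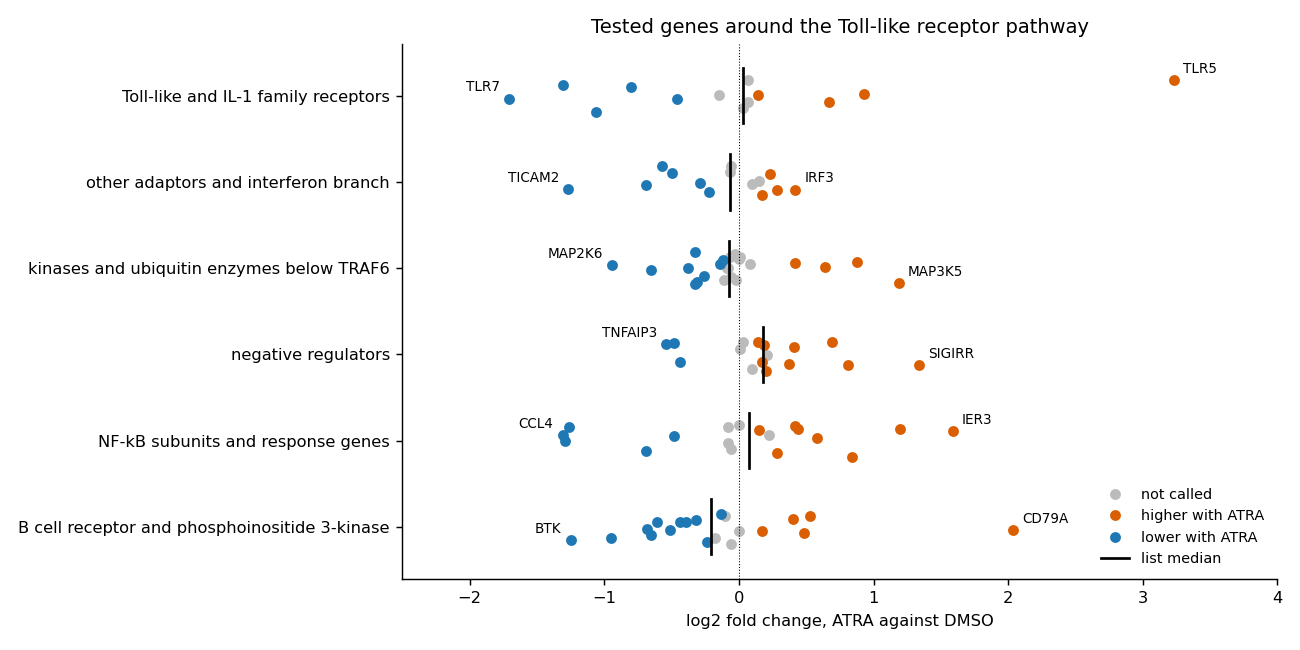
Log2 change with ATRA against DMSO (horizontal axis) of each tested gene in the 6 lists, with the list median as a black line. Points are genes, orange where called higher, blue where called lower and grey where not called by limma, and vertical scatter within a list has no meaning. Each list holds genes called in both directions. TLR5, SIGIRR, IER3 and CD79A, at the right edges, were under 1 FPM on average in DMSO. TLR5 and CD79A passed the filter only through the groups with ATRA, and LY86 mainly through the groups without it.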

How the data were processed

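Total RNA of MM.1S cells was sequenced in 8 libraries, each run on 4 lanes (32 samples). The tools named are fastp 0.20.0, kallisto 0.46.2 and DESeq2 without a version, per the submitters' processing notes. No genome build, annotation or strand setting is given in the sources read. The authors deposited FPM values per lane, a CPM unit whose columns each sum to 1000000. Whole reads were recovered for 100% of values within 0.01 read, and intervals and floors from them cover counting error only. The table has 24402 lines for 24249 gene IDs, since 143 IDs stand on several lines with the same values, and each was used once. Where the table gave no symbol, GENCODE release 29 (6482 IDs) and a table of gene names (754) were used.

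Lanes were averaged per library. The test was limma (version 3.58.1, under R version 4.3.3) with its trend option on log2(FPM + 0.5). The added 0.5 understates the change of low genes. Genes whose group means averaged at least 0.5 FPM were tested, with all 8 libraries in 1 fit (4 residual and 7.2 prior degrees of freedom). Benjamini-Hochberg adjustment ran over 15827 genes. Only the DMSO and ATRA groups have replicates to estimate the spread from. The script was tested on simulated data. Alternatives were 2 other pseudocounts, 2 other filters, median-ratio scaling, robust moderation, edgeR 4.0.16 and DESeq2 1.42.0 on the recovered reads, leaving out each replicate and a replicate block. Transcript lengths and overlaps came from GENCODE release 29 (for each gene its basic protein-coding transcripts), and promoters from RefSeq.

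The genes and lists were chosen with earlier results of these data known. Named were the 8 genes, the 4 most alike genes of IRAK2 and of PIK3AP1, and per list the called genes of smallest p whose higher group reached 2 FPM, up to 5 for ATRA and 3 for each of Cfz and ATRA+Cfz against DMSO. TLR2, TLR3, TLR4, LY86, MAP3K7, MAP2K6, TOLLIP, RELA, CCL3, CCL4, SIGIRR and CD79A were named after their values were seen. Where a symbol had several gene IDs, the more abundant was used. TRAF1 and INPP5D stand on 2 lists. One gene that the rule named is not reported here, and list counts include it.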

Additional observations from a re-analysis of the deposited data

How the results depend on the processing

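Of 664 values of the 8 genes under 15 alternatives, 642 kept their direction and side of the threshold, 14 passed it, 2 no longer did and 6 changed sign. The sign changes were those of IRAK1 in Cfz against DMSO (edgeR 0.02, DESeq2 0.04, median-ratio scaling 0.05 and between -0.07 and 0.03 when a replicate was left out), IRAK2 in Cfz against DMSO (between -0.00 and 0.36 when a replicate was left out) and IRAK4 in ATRA+Cfz against Cfz (0.01 with edgeR). None of these was called. With DESeq2, 2013 genes were called in Cfz against DMSO (3948 with limma), 3118 in ATRA+Cfz against Cfz (4818) and 2886 in ATRA+Cfz against ATRA (4884), where 3 of the 8 genes were called in place of 5. In the interaction 1 of the 8 was called with median-ratio scaling and with DESeq2, and 0 to 1 when a replicate was left out. The number of all genes called in the interaction ran between 2 (without ATRA 1) and 1985 (without DMSO 3), against 364. It was 240 without DMSO 1, 164 without DMSO 2, 8 without ATRA 2 and 35 without ATRA 3. The cause of these moves was not tested. Same-numbered ATRA and DMSO libraries did not deviate together (r of -0.01, 0 and 0.01), and neither did those of different numbers. No shared deviation was seen, but this cannot settle whether the numbers mark paired cultures. With the replicate block, 7629 genes were called in ATRA against DMSO, against 7704, with 7 of the 8 genes called in each fit, IRAK2, IRAK3 and PIK3AP1 included, and 72 list genes called, against 71. DESeq2 gave no adjusted p for IRAK3 in some comparisons, and with a filter of 2 FPM IRAK3 was not tested. All counts of the 8 genes under these alternatives include IRAK2, IRAK3 and PIK3AP1 and are a description. IRAK3 and the DMSO levels of IRAK2 are limited by depth.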
